A study of Mus musculus with 3 samples.

Results

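The troponin and tropomyosin genes were taken from the gene tables by symbol. They were the 10 genes Tnnt1, Tnnt2, Tnnt3, Tnni1, Tnni3, Tnnc1, Tpm1, Tpm2, Tpm3 and Tpm4, of 54532 genes in all, and each of the 10 had a row in the count table and in the FPKM table. Of these, 6 encode troponin subunits and 4 encode tropomyosins. Tnni2 and Tnnc2, the fast skeletal troponin I and troponin C genes, were read beside them to complete the families.

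RNA was sequenced from 3 mouse libraries, with 1 for each condition, so differences between conditions could not be checked in replicates and no p-value is given. MICFs, cardiac fibroblasts of Myh6-mCherry mice operated on at 8 weeks of age and taken 5 days after myocardial infarction, were cultured for 4 weeks without virus. GMTMS-iCMs came from MICFs transduced with Gata4, Mef2c, Tbx5, Myocd and Sall4, cultured with doxycycline at 1 μg/ml for 4 weeks and sorted for mCherry, which the Myh6 promoter drives. GMTMM-iCMs were made in the same way with Mesp1 in place of Sall4. RNA of each iCM group was a mixture of 5 sorted samples. No doxycycline, pooling or reporter gate was named for MICFs. Against MICFs, the cocktail therefore cannot be told apart from transduction itself, doxycycline, pooling or the selection of cells with an active Myh6 promoter.

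Troponin and tropomyosin form the calcium switch of the thin filament of striated muscle. Troponin C binds calcium, troponin I holds back the interaction of actin with myosin, and troponin T anchors the complex to tropomyosin, the coiled coil that lies along actin. Cardiac, slow skeletal and fast skeletal muscle use different genes for troponin T and troponin I, whereas the tropomyosin genes also yield products for the actin filaments of non-muscle cells, and Tpm4 is known mainly for these.

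MICFs had 11861773 counts in total, GMTMS-iCMs had 10624118 and the third library had 11904484. Sall4 had 0, 1190 and 1060 counts in that order and Mesp1 had 0 in all 3 libraries, so the third library contained Sall4 reads although its label names a cocktail without that factor, and it is called the GMTMM-labelled library here. Among 6 cardiomyocyte markers (Myh6, Actc1, Myl7, Ryr2, Actn2 and Ttn), the summed FPKM (fragment counts scaled to gene length and library size) was 0.0548 in MICFs, with 1199 in GMTMS-iCMs and 440.5 in the GMTMM-labelled library, and 4 of the 6 were at 0 counts in MICFs. The 6 fibroblast markers summed to 1192, 168 and 2181, and the 6 macrophage markers to 7233, 14953 and 7011. The libraries labelled as fibroblasts and as induced cardiomyocytes therefore all held reads of macrophage markers. The part of these differences in the results below was not tested, and in bulk RNA fewer cells of a type and less RNA per cell cannot be told apart.

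Sequences upstream of the 4 troponin genes that were higher in both iCM libraries are shown first, because the delivered factors include a GATA factor (Gata4) and a T-box factor (Tbx5). Each is the run of 250 bases before the RefSeq transcription start on GRCm38.p6, read 5′ to 3′ on the strand of the gene. Of 2 Tnnt2 windows in the table, the one shown is chr1:135836084-135836333 on the plus strand, and the other, chr1:135836739-135836988, held 0 matches to the motifs searched. The Tnnc1 window is chr14:31208062-31208311 on the plus strand. The Tnni3 window is chr7:4522529-4522778 and the Tnnt1 window is chr7:4515976-4516225, both on the minus strand, and both lie inside the span that the tables give for the gene. Capitals mark matches on either strand. The letters searched were AGATAA for the motif of GATA factors. For T-box factors they were AGGTGT. The MCAT element of muscle genes was searched as CATTCC. The TATA box was searched as TATAAA.
Tnnt2: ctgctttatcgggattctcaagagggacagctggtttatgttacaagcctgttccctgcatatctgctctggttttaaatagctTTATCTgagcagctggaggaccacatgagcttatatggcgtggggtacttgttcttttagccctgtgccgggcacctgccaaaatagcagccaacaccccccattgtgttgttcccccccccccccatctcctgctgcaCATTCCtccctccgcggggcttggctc
Tnni3: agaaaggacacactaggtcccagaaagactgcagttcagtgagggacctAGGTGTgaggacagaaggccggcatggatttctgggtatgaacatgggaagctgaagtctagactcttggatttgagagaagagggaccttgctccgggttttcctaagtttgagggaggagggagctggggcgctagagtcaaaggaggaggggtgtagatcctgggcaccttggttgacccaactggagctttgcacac
Tnnc1: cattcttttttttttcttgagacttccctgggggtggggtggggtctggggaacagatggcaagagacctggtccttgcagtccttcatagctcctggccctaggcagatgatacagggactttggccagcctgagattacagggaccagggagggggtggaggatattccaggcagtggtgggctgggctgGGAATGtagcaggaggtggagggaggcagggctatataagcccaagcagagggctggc
Tnnt1: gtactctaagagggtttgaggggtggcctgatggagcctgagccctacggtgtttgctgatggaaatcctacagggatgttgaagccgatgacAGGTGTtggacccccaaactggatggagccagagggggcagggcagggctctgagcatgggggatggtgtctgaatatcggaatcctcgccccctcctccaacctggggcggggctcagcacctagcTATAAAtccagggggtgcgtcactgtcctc

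In the Tnnt2 window shown, the GATA letters stood on the opposite strand from 166 to 161 bases before the start and the MCAT letters from 27 to 22 bases before it. The Tnni3 window held the T-box letters from 201 to 196 bases before the start, and the Tnnt1 window held them from 157 to 152 bases, with a TATA match from 30 to 25 bases. The Tnnc1 window held the MCAT letters on the opposite strand, from 58 to 53 bases before the start. RefSeq promoter entries were found for 9 of the 10 members, as 12 windows, and Tnnt3 was the other member. GATA letters were in 2 of the 12 windows (Tnnt2 and a Tpm3 window) and in 9.99% of 32851 promoter windows of the same length. T-box letters were in 4 of the 12 (2 overlapping Tnni1 windows, Tnnt1 and Tnni3) and in 11.8% of all. MCAT letters were in 3 of the 12 (Tnnt2, Tnnc1 and Tpm1) and in 12.6% of all, and TATA letters in 1 of the 12 and in 12.4% of all. The CArG box and the MEF2 site, searched on both strands, were in 0 of the 12 windows and in 1.47% and 0.508% of all. A match is a description of these letters and not of a bound site.

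Differences are given on the scale log2 (quantile-normalized FPKM + 1), and a gene is called higher or lower when the difference is over 1. Ratios are of the deposited FPKM, and their 95% Clopper-Pearson intervals cover counting error only. Between GMTMS-iCMs and MICFs, 4 of the 10 members were higher (Tnnt2, Tnnc1, Tnnt1 and Tnni3) and 1 was lower (Tpm4). Of 15702 genes with at least 10 counts in at least 1 library, 9.00% were higher and 8.69% were lower. All 10 members passed that count minimum. The median difference was 0.37 over the members, 3.86 over the 6 troponins and -0.31 over the 4 tropomyosins, beside -0.07 over all genes tested.

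**Figure D1:**
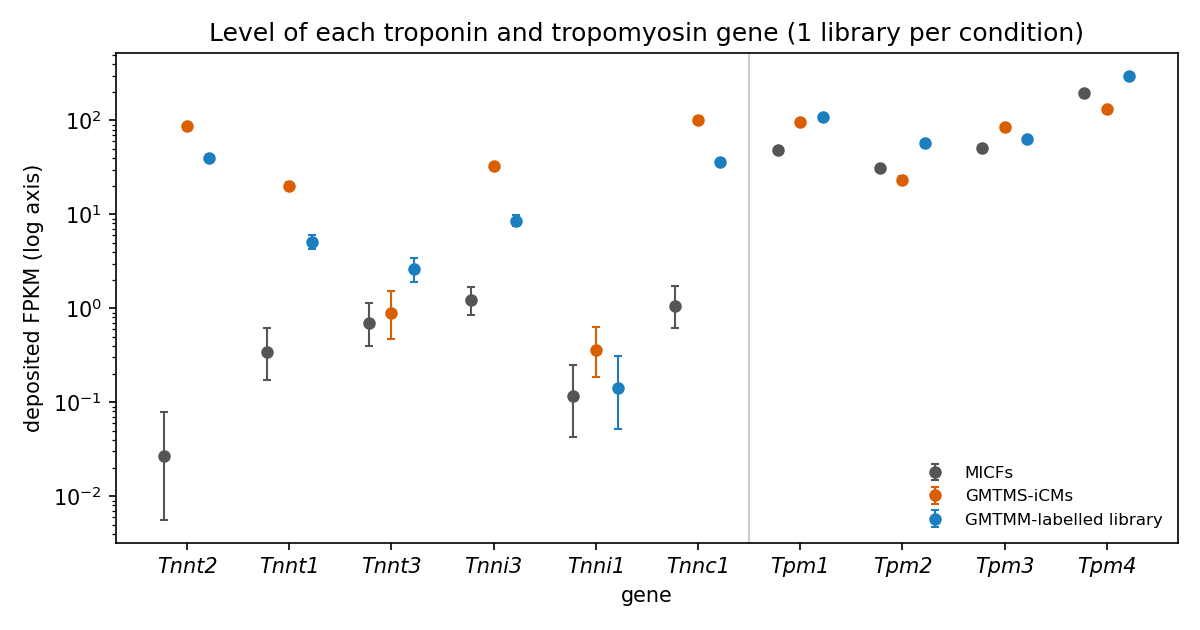
Deposited FPKM of each member (vertical log axis) in MICFs (grey), GMTMS-iCMs (orange) and the GMTMM-labelled library (blue), with 95% exact Poisson counting intervals and 1 library per point. Tnnt2 ran from 0.0269 in MICFs to 86.3 in GMTMS-iCMs, whereas each tropomyosin lay between 23.5 and 296 in every library.

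Tnnt2 encodes cardiac troponin T (ENSMUSG00000026414, chromosome 1 from 135836354 to 135852260, plus strand, GRCm38). MICFs had 3 counts, GMTMS-iCMs 6216 and the GMTMM-labelled library 3594, or 0.0269, 86.3 and 39.7 FPKM. MICFs were at the floor of 3 counts, and both iCM libraries were far above it. The ratio to MICFs was 3210 (1098 to 15570) in GMTMS-iCMs and 1476 (505 to 7160) in the GMTMM-labelled library, with differences of 6.23 and 5.21. With only 3 counts in the denominator, the width of these intervals comes from MICFs.

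Tnnt1, the slow skeletal troponin T gene (ENSMUSG00000064179, chromosome 7 from 4504570 to 4516382, minus strand), had 11, 410 and 131 counts, or 0.347, 20.0 and 5.09 FPKM in MICFs, GMTMS-iCMs and the GMTMM-labelled library. Its ratio to MICFs was 57.7 (31.9 to 117) in GMTMS-iCMs and 14.7 (7.94 to 30.1) in the GMTMM-labelled library. It was thus well above MICFs in both iCM libraries. Tnnt3, the fast skeletal troponin T gene (ENSMUSG00000061723, chromosome 7 from 142498836 to 142516009, plus strand), had 16, 13 and 48 counts, or 0.702, 0.884 and 2.60 FPKM. MICFs and GMTMS-iCMs were indistinguishable for Tnnt3 within counting error, with a ratio of 1.26 (0.557 to 2.79), and only the GMTMM-labelled library stood above both, with a ratio to MICFs of 3.70 (2.06 to 6.97) and a difference of 1.07.

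Tnni3 encodes cardiac troponin I (ENSMUSG00000035458, chromosome 7 from 4518305 to 4524229, minus strand). It had 36, 624 and 207 counts, or 1.21, 32.6 and 8.59 FPKM in MICFs, GMTMS-iCMs and the GMTMM-labelled library. The ratio to MICFs was 26.9 (19.2 to 38.7) in GMTMS-iCMs and 7.08 (4.95 to 10.4) in the GMTMM-labelled library, so Tnni3 was higher in both, by smaller ratios than Tnnt2 or Tnnc1. Of its annotated exon bases, 4.17% also lie in exons of Dnaaf3 on the same strand. Tnni1, the slow skeletal form that is also the troponin I of the fetal heart (ENSMUSG00000026418, chromosome 1 from 135779434 to 135810989, plus strand), had 6, 12 and 6 counts, or 0.116, 0.359 and 0.143 FPKM. These few counts gave a ratio of 3.10 (1.08 to 10.1) for GMTMS-iCMs against MICFs and of 1.23 (0.329 to 4.61) for the GMTMM-labelled library. The difference of Tnni1 between GMTMS-iCMs and MICFs was 0.32 with the pseudocount of 1 but 1.18 with one of 0.1, 1.25 on TMM log2 CPM and 1.45 on counts divided by DESeq2 size factors. Tnni2 had 4, 9 and 6 counts.

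Tnnc1 encodes the troponin C of cardiac and slow skeletal muscle (ENSMUSG00000091898, chromosome 14 from 31208312 to 31211729, plus strand). It had 16, 979 and 434 counts, or 1.07, 101 and 35.7 FPKM in MICFs, GMTMS-iCMs and the GMTMM-labelled library. The ratio to MICFs was 94.8 (58.1 to 167) in GMTMS-iCMs and 33.4 (20.3 to 59.0) in the GMTMM-labelled library. The order of the 3 libraries was the one seen for Tnnt2, Tnnt1 and Tnni3. Tnnc2 had 0 counts in each library. Of its exon bases, 74% also lie in exons of Ube2c on the opposite strand, and the use of strand in counting is not given in the sources used here, so these zeros may not bound its level.

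**Figure D2:**
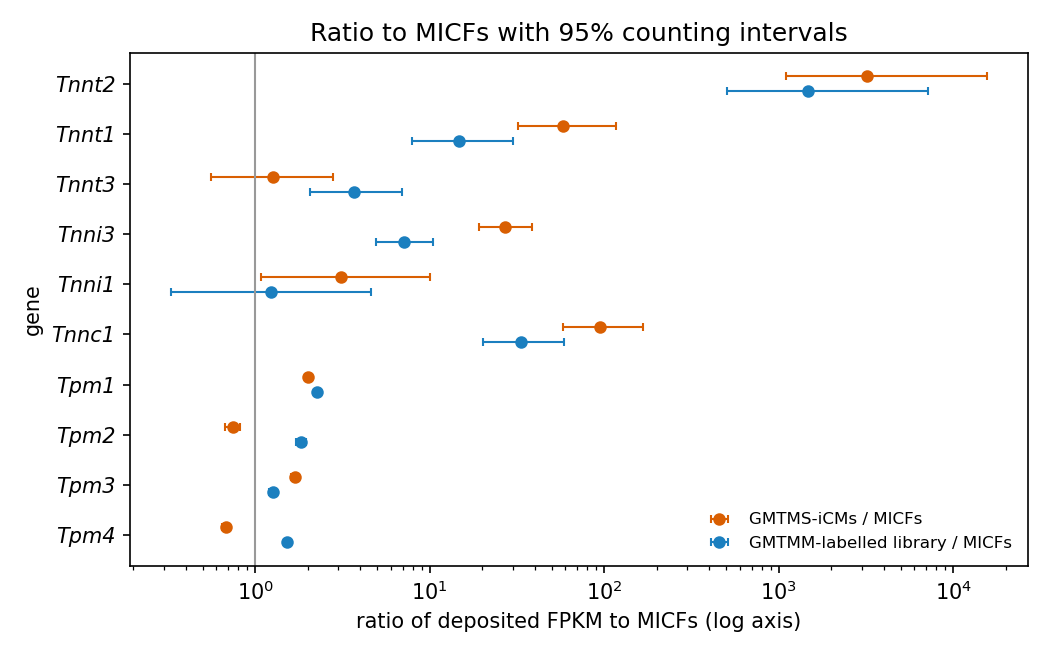
Ratio of deposited FPKM to MICFs (horizontal log axis) for each member in GMTMS-iCMs (orange) and the GMTMM-labelled library (blue), with 95% Clopper-Pearson counting intervals and a line at 1. Tnnt2, Tnnt1, Tnni3, Tnnc1, Tpm1 and Tpm3 lie to the right of 1 in both with their intervals, and Tpm2 and Tpm4 lie on opposite sides of 1 in the 2 iCM libraries. The directions of Tpm3 and Tpm4 in the GMTMM-labelled library depend on the scaling.

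Among the tropomyosins, Tpm1 is the main tropomyosin of the mouse heart and also yields non-muscle products (ENSMUSG00000032366, chromosome 9 from 67022590 to 67049406, minus strand). It had 4514, 5845 and 8276 counts, or 48.4, 97.0 and 109 FPKM in MICFs, GMTMS-iCMs and the GMTMM-labelled library. MICFs thus already contained a high level of Tpm1, and the ratio to them was 2.01 (1.93 to 2.09) in GMTMS-iCMs and 2.26 (2.18 to 2.34) in the GMTMM-labelled library. The differences were 0.42 and 0.67 with quantile normalization and 0.99 and 1.16 on deposited FPKM without it, so that the second then passed 1. The annotation lists 21 transcripts of Tpm1, and counts per gene cannot separate its muscle from its non-muscle products.

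Tpm2, known in slow muscle, smooth muscle and fibroblasts (ENSMUSG00000028464, chromosome 4 from 43514711 to 43523765, minus strand), had 1319, 634 and 1961 counts, or 31.5, 23.5 and 57.7 FPKM. It was lowest in GMTMS-iCMs and highest in the GMTMM-labelled library. Its ratio to MICFs was 0.745 (0.676 to 0.819) in GMTMS-iCMs and 1.83 (1.71 to 1.97) in the GMTMM-labelled library, with differences of -0.79 and 0.44, neither past 1. Tpm4, the gene of a short non-muscle tropomyosin (ENSMUSG00000031799, chromosome 8 from 72134975 to 72153142, plus strand), had 6188, 2712 and 7606 counts, or 195, 133 and 296 FPKM. Between GMTMS-iCMs and MICFs it was the only member called lower, with a difference of -1.27 and a ratio of 0.679 (0.649 to 0.710). The call was lost on deposited FPKM without quantile normalization, where the difference was -0.56, and with TMM (-0.64) and DESeq2 size factors (-0.56). The first and last of these share the same scaling, because the deposited FPKM already use the size factors. In the GMTMM-labelled library the difference of Tpm4 from MICFs was -0.07 with quantile normalization and 0.60 without it, and its ratio was 1.51 (1.46 to 1.57), so its direction depends on the scaling. The fibroblast markers were also below MICFs in GMTMS-iCMs, 6 of 6 by over 1 with a median difference of -3.11, and so were the endothelial markers, 5 of 5 with a median of -3.00 and summed FPKM of 311, 9.64 and 230.0 in MICFs, GMTMS-iCMs and the GMTMM-labelled library. The 6 smooth muscle markers summed to 240.2, 397 and 538, most of it from Acta2 at 182, 300 and 445. They did not move together in GMTMS-iCMs against MICFs. There, 2 were higher by over 1 (Myh11 and Cnn1), 1 was lower (Smtn, by -2.67) and 3 were within the limit. The part of these cell type markers in the Tpm2 and Tpm4 values was not tested.

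Tpm3, which yields a slow muscle and several non-muscle tropomyosins (ENSMUSG00000027940, chromosome 3 from 90072649 to 90100902, plus strand), had 4457, 4838 and 4550 counts, or 50.9, 85.6 and 64.0 FPKM. In GMTMS-iCMs its difference from MICFs was 0.18 with quantile normalization and 0.74 without it, and its ratio was 1.68 (1.61 to 1.75). In the GMTMM-labelled library the difference was -0.18 with quantile normalization and 0.33 without it, and the ratio was 1.26 (1.21 to 1.31). No direction is therefore given for Tpm3 in the GMTMM-labelled library. Of the 50-base words of the longest protein-coding Tpm3 transcript, 62.4% are also in the single-exon relative Tpm3-rs7, which had 1081, 1064 and 1038 counts. How reads matching both were counted is not given in the sources used here, so the Tpm3 values are uncertain. For Tpm4, 12.1% of the words are shared with Gm7809.

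Between the GMTMM-labelled library and MICFs, 5 of the 10 members were higher and 0 were lower, beside 6.43% higher and 3.53% lower of the genes tested. The 5 were Tnnt2, Tnnc1, Tnnt1, Tnni3 and Tnnt3, all troponins, with a median difference of 2.14 over the 6 troponins and 0.18 over the 4 tropomyosins. The median over all genes tested was -0.08. This comparison and the previous one share the MICF library, so they are not independent of each other.

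Between GMTMS-iCMs and the GMTMM-labelled library, 4 members were higher in GMTMS-iCMs (Tnnt1, Tnni3, Tnnc1 and Tnnt2) and 2 were lower (Tpm2 and Tpm4), beside 6.11% higher and 9.07% lower of the genes tested. The median difference was 0.33 over the members and 0.06 over all genes tested. Tnnt1 differed by 1.75 with a ratio of 3.94 (3.23 to 4.83), and Tnni3 differed by 1.70 with a ratio of 3.79 (3.23 to 4.46). Their intervals overlapped, and both ratios were above those of Tnnc1, at 2.84 (2.53 to 3.18), and Tnnt2, at 2.18 (2.09 to 2.27). Tnnt2 was just past the limit, with a difference of 1.02. Tpm2 was lower in GMTMS-iCMs by a ratio of 0.407 (0.371 to 0.445) and Tpm4 by 0.448 (0.429 to 0.469), with differences of -1.23 and -1.20. Tnnt3 had a ratio of 0.341 (0.169 to 0.639) and a difference of -0.85 that did not pass the limit, although it reached -1.31 to -1.50 with a pseudocount of 0.1, TMM or DESeq2 size factors. The 6 cardiomyocyte markers were all higher in GMTMS-iCMs than in the GMTMM-labelled library, with a median difference of 1.33, and the 6 fibroblast markers were all lower, with a median of -3.39. The part of these markers in the 4 higher and 2 lower members was not tested.

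The make-up of each family was read as shares of its summed FPKM within a library, where the scaling of the library cancels. In troponin T, Tnnt2 took 2.50% (0.495 to 7.69) in MICFs, with 80.5% (78.9 to 82.0) in GMTMS-iCMs and 83.8% (81.6 to 85.8) in the GMTMM-labelled library. Tnnt1 took 32.2%, 18.7% and 10.7%, and Tnnt3 took 65.3%, 0.824% and 5.48%. In MICFs the family had 30 counts, and Tnnt3 could not be ranked above Tnnt1 within counting error, with a ratio of 2.03 (0.883 to 4.83). The cardiac gene led in both iCM libraries, followed by the slow skeletal gene. The intervals for Tnnt1 in the iCM libraries did not overlap, at 17.2 to 20.2% in GMTMS-iCMs and 9.12 to 12.5% in the GMTMM-labelled library. By the longest protein-coding transcript the Tnnt1 shares were lower, at 6.94% (6.31 to 7.61) and 3.91% (3.28 to 4.62), and the Tnnt3 shares were 0.216% and 1.41%.

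In troponin I, Tnni3 took 80.1% (66.2 to 90.1) in MICFs, with 97.0% (95.5 to 98.1) in GMTMS-iCMs and 94.6% (90.8 to 97.2) in the GMTMM-labelled library. The family was led by the cardiac gene in every library, although MICFs had only 46 counts for it. Tnni1 took 7.65%, 1.07% and 1.57%, and its intervals overlapped between the iCM libraries. In troponin C, Tnnc1 made up all counts in each library, and no limit is given for the share of Tnnc2 because of its overlap with Ube2c.

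**Figure D3:**
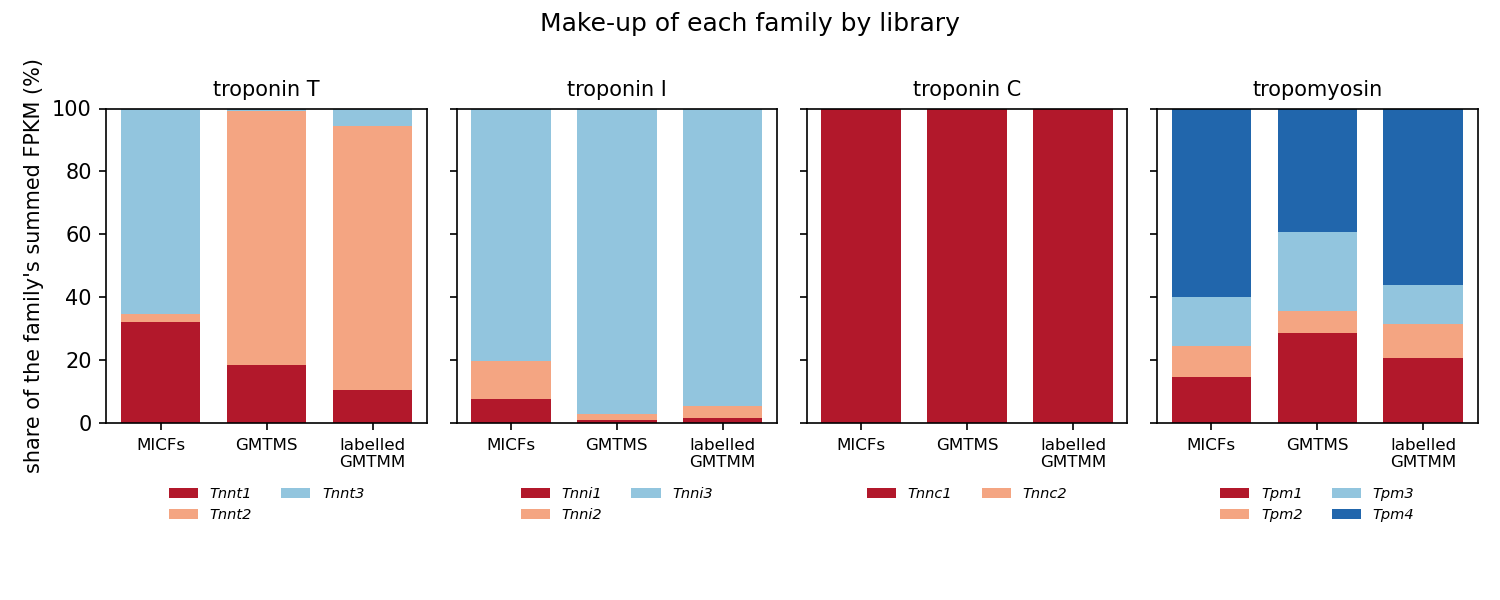
Share of each gene in the summed deposited FPKM of its family (vertical axis, percent) in the 3 libraries, for troponin T, troponin I, troponin C and tropomyosin. Tnnt2 fills 2.50% of the troponin T bar in MICFs and 80.5% and 83.8% in the iCM libraries, and Tpm4 fills 59.9%, 39.1% and 56.1% of the tropomyosin bars.

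In tropomyosin, Tpm4 took 59.9% (59.1 to 60.6) in MICFs, with 39.1% (38.1 to 40.1) in GMTMS-iCMs and 56.1% (55.4 to 56.8) in the GMTMM-labelled library. Tpm1 took 14.8%, 28.7% and 20.7%, Tpm3 took 15.6%, 25.3% and 12.2%, and Tpm2 took 9.67%, 6.93% and 11.0%. The family of the GMTMM-labelled library thus stood nearer to MICFs than GMTMS-iCMs did for all 4 shares. Tpm4 was the largest share in every library by deposited FPKM, which divides by all annotated exon bases of a gene. With the longest protein-coding transcript as length, Tpm4 took 41.1%, 22.1% and 38.1%, and in GMTMS-iCMs it was below Tpm1 at 35.1% and Tpm3 at 37.6%.

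By class, the cardiac genes Tnnt2, Tnni3 and Tnnc1 made up 63.1% of the summed troponin FPKM in MICFs, with 90.9% in GMTMS-iCMs and 91.1% in the GMTMM-labelled library. The slow skeletal genes Tnnt1 and Tnni1 made up 12.6%, 8.42% and 5.68%, and the fast skeletal genes Tnnt3, Tnni2 and Tnnc2 made up 24.3%, 0.633% and 3.19%. Tnnc1 was counted as cardiac, although slow skeletal muscle uses it too. The MICF percentages rest on only 55 counts of cardiac, 17 of slow skeletal and 20 of fast skeletal genes, and no intervals were computed for classes. The fast skeletal class includes Tnnc2, whose zeros may not bound its level. The 9 skeletal muscle markers summed to 0.967, 6.02 and 4.66 FPKM. Of these, the muscle factors Myod1, Myog, Myf5 and Pax7 and the fast myosin gene Myh4 had 0 counts in all 3 libraries, Ckm had 0, 15 and 3, Myh1 had 5, 0 and 7 and Myh2 had 0, 0 and 1. Actn3, the fast muscle alpha-actinin gene, had 38, 147 and 151 counts and was the marker called higher in both iCM libraries, by 1.83 and 1.52. With the longest protein-coding transcript as length, the cardiac class took 64.3%, 94.5% and 95.5%, the slow skeletal class 15.6%, 5.20% and 3.22% and the fast skeletal class 20.1%, 0.311% and 1.31%. Summed troponin FPKM was 3.66, 242 and 92.1, whereas summed tropomyosin FPKM was 326, 339 and 527. Troponin was thus 1.11% of the FPKM of both groups in MICFs, with 41.7% in GMTMS-iCMs and 14.9% in the GMTMM-labelled library. By the longest protein-coding transcript these percentages were 1.39%, 57.0% and 29.9%, so troponin exceeded tropomyosin in GMTMS-iCMs by that length but not by FPKM.

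Ratios between members within a library depend on the gene lengths used. The tables give Tnnt2 a length of 7752 bases, which covers all annotated exons, whereas its longest protein-coding transcript has 1200 bases. By FPKM, Tnnt2 stood at 0.853 times (0.797 to 0.913) the level of Tnnc1 in GMTMS-iCMs and at 1.11 times (1.01 to 1.23) in the GMTMM-labelled library. By the length of the longest protein-coding transcript, these ratios were 3.81 (3.57 to 4.08) and 4.98 (4.50 to 5.51). The ratio of Tnnt2 to Tnnc1 was higher in the GMTMM-labelled library than in GMTMS-iCMs, a comparison in which the gene lengths cancel. Which gene had the higher level in GMTMS-iCMs turned on the length. Tnnt2 was 2.65 times (2.44 to 2.88) Tnni3 in GMTMS-iCMs and 4.62 times (4.02 to 5.34) in the GMTMM-labelled library by FPKM, and 7.57 and 13.2 times by the other length.

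Of the troponin genes, 3 pairs lie near each other in the genome. Tnnt1 and Tnni3 are 1922 bases apart on chromosome 7 with no annotated gene between them, both on the minus strand, and both were higher in the iCM libraries. The ratio of Tnni3 to Tnnt1 FPKM was 3.50 (1.74 to 7.62) in MICFs, with 1.63 (1.43 to 1.85) in GMTMS-iCMs and 1.69 (1.35 to 2.12) in the GMTMM-labelled library. The ratio was alike in the iCM libraries within counting error. The MICF interval, from 36 and 11 counts, overlapped both of theirs. Tnni1 and Tnnt2 are 25364 bases apart on chromosome 1 with Lad1 between them, and there only Tnnt2 was called higher. Tnni2 and Tnnt3 are 54425 bases apart on chromosome 7 with Lsp1 between them, and of these only Tnnt3 in the GMTMM-labelled library was called.

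The other thin filament genes were read from a list of 22, of which 18 had at least 10 counts in a library. Between GMTMS-iCMs and MICFs, 5 were higher and 4 were lower, beside 9.00% and 8.69% of the genes tested. The median difference over all 22, including those under 10 counts, was -0.003 (-0.00264 before rounding). Actc1, the cardiac actin gene, had counts of 1, 4765 and 2313 in the same library order, and Acta1, the skeletal actin gene, had 2, 1467 and 666. The striated muscle actins thus had the library order of Tnnt2. Tmod1, which caps the pointed end of sarcomeric actin, had 63, 207 and 89 counts, and Lmod2, a nucleator of cardiac thin filaments, had 0, 28 and 18, at least 14.5-fold and 7.39-fold higher than the floor of 3 counts in MICFs. Cnn1, the smooth muscle calponin gene, was also higher, with 213, 402 and 415 counts.

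The 4 lower genes in GMTMS-iCMs were Actg2 (350, 17 and 219 counts), Cnn2 (1812, 425 and 1410), Cnn3 (1929, 327 and 2902) and Cald1 (4903, 1581 and 7021). They encode an enteric smooth muscle actin, non-muscle calponins and caldesmon, which binds actin and tropomyosin. Their differences from MICFs were -3.04, -1.85, -2.21 and -1.27 in GMTMS-iCMs, and in the GMTMM-labelled library they lay between -0.56 and 0.43. Cnn3 and Cald1 thus shared with Tpm2 the order in which GMTMS-iCMs were lowest and the GMTMM-labelled library highest. Tmod2, with 120, 2 and 65 counts, was not called lower in GMTMS-iCMs, with a difference of -0.71. Its ratio to MICFs there was 0.0258 (0.00309 to 0.0953), beside 0.0752 (0.0433 to 0.122) for Actg2. At 0.714 FPKM in MICFs, the added 1 keeps the difference of Tmod2 small. Acta2, the smooth muscle actin gene, had 4672, 4970 and 9262 counts with a difference of -0.03 in GMTMS-iCMs. In the GMTMM-labelled library, 3 of the 22 were higher than in MICFs (Actc1, Acta1 and Cnn1) and 0 were lower. Of the genes tested, 6.43% were higher and 3.53% were lower. Between the iCM libraries, 3 were higher in GMTMS-iCMs (Actc1, Acta1 and Tmod1) and 4 were lower (Actg2, Cnn2, Cnn3 and Cald1). Of the genes tested, 6.11% were higher and 9.07% were lower in GMTMS-iCMs.

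**Figure D4:**
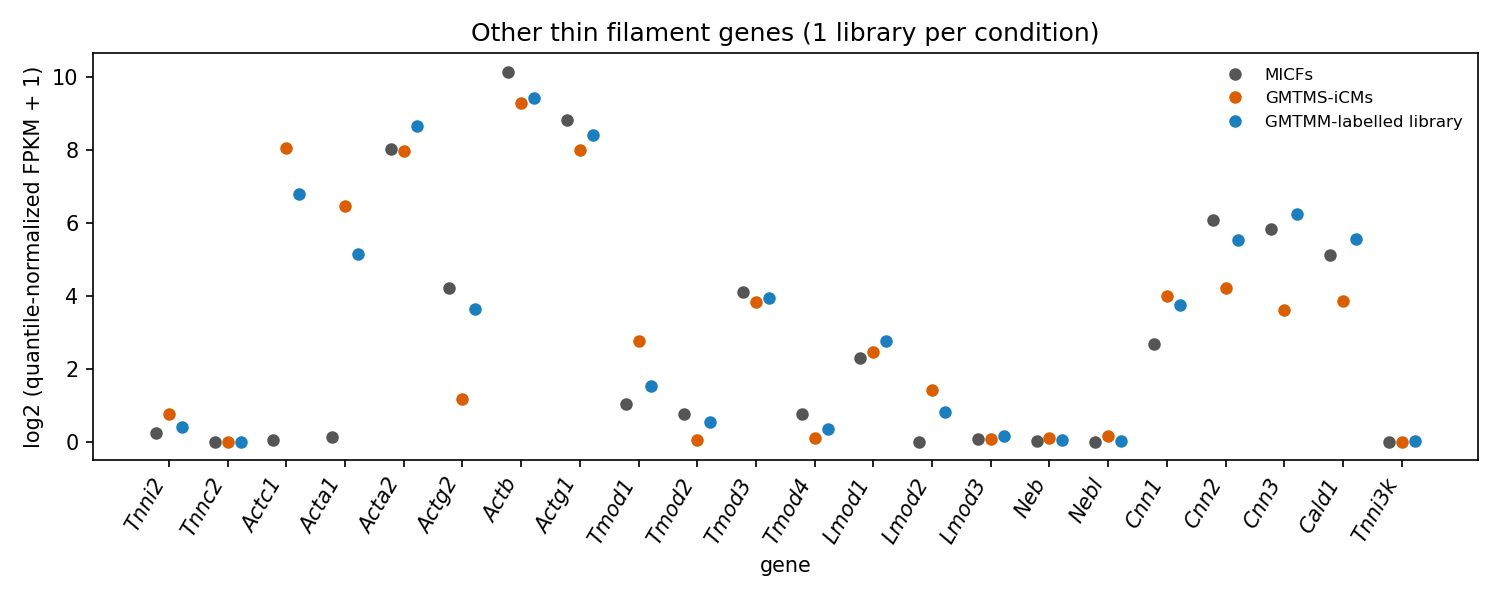
Level of 22 other thin filament genes as log2 (quantile-normalized FPKM + 1) (vertical axis) in MICFs (grey), GMTMS-iCMs (orange) and the GMTMM-labelled library (blue), 1 library per point. Actc1 and Acta1 are near 0 in MICFs and high in both iCM libraries, and Actg2, Cnn2, Cnn3 and Cald1 are lowest in GMTMS-iCMs.

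The genes whose pattern was most like Tnnt2 were found among 10736 genes with at least 100 counts in the highest library, by the Euclidean distance of the 3 centred values. They were Acod1, Acta1, Ccl5, 5430431A17Rik and Oasl1, at distances of 0.17 to 0.47 on the log2 scale. Acta1 is a muscle gene, whereas Acod1 and Ccl5 are known in activated macrophages. Acod1 had 2, 2532 and 1252 counts and Ccl5 had 21, 1499 and 1021, in the order MICFs, GMTMS-iCMs and GMTMM-labelled library. For Tpm2 the nearest were Cdh19, Acpp, Lix1l, Gjc1 and Shc2, at distances of 0.01 to 0.03 (0.0138 to 0.0347 before rounding). Likeness over 3 libraries is a description only, since many genes share any pattern of 3 values.

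**Figure D5:**
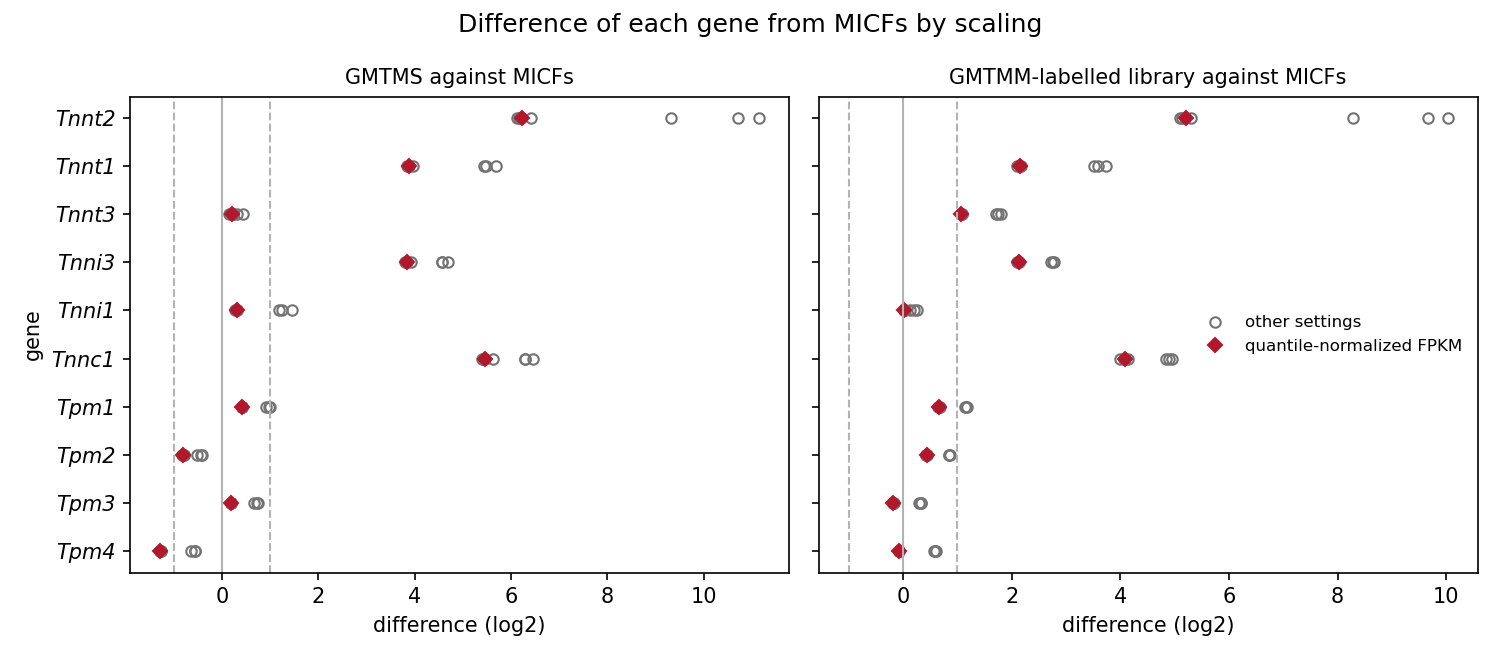
Difference of each member from MICFs on the log2 scale (horizontal axis), for GMTMS-iCMs (left) and the GMTMM-labelled library (right), with quantile-normalized FPKM as filled diamonds, 7 other settings as open circles and dashed lines at 1 and -1. Tnnt2, Tnnt1, Tnni3 and Tnnc1 lie beyond 1 at every setting, and Tpm4 in the right panel runs from -0.08 to 0.60.

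The plot of differences by scaling shows which calls depend on the scale. Tnnt2, Tnnt1, Tnni3 and Tnnc1 were over 1 in both iCM libraries at each of the 8 settings, with ranges of 6.13 to 11.1, 3.84 to 5.70, 3.79 to 4.70 and 5.39 to 6.46 in GMTMS-iCMs. Tpm2 was below 0 in GMTMS-iCMs at each setting, from -0.82 to -0.41, and above 0 in the GMTMM-labelled library, from 0.42 to 0.87. Without quantile normalization the members called between GMTMS-iCMs and MICFs were 4 higher and 0 lower, beside 10.2% higher and 8.60% lower of the genes tested. With DESeq2 size factors they were 6 higher and 0 lower, beside 16.4% and 20.0%. The 2 added at this setting were Tnni1, at 12 counts or fewer, and Tpm1, at 1.00. The deposited FPKM already use these size factors, so this setting and the one without quantile normalization share the same scaling. They differ in whether 1 is added to scaled counts or to FPKM. On deposited FPKM without quantile normalization, Tnni1 was at 0.28 and Tpm1 at 0.99.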

How the data were processed

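RNA-seq of 3 mouse libraries was read from gene tables. The authors deposited raw counts per gene and, in a second table, FPKM per gene. Recomputed from counts and gene lengths, the deposited FPKM used library sizes equal to DESeq2 size factors (1.26, 0.811 and 1.02 for MICFs, GMTMS and GMTMM) times a common total, not the library totals. The submitters' processing notes name HISAT2 2.0.5 and mm9, whereas 53499 of 54532 gene IDs have the start and end of GENCODE M21 (GRCm38), so GRCm38 coordinates are given. The counting tool, its use of strand and its handling of reads with several matches are not given in the sources used here. The column of MICFs carries another abbreviation and was matched because the others name the cocktails.

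FPKM were quantile-normalized over the 3 libraries, ties averaged, then transformed as log2 (value + 1), and a difference over 1 was called. Genes with at least 10 counts in a library gave the background. Shares have Clopper-Pearson 95% intervals rescaled by length, with the mix of the rest of the family held fixed. A count of 0 allows 3 counts, which is 0.253, 0.282 and 0.252 CPM in the 3 libraries. PCR reads are not independent molecules, so intervals and floors cover counting error only. The genes named were the members, their families, the fixed lists of thin filament genes and markers, Sall4 and Mesp1, and the 5 nearest patterns to Tnnt2 and Tpm2. Tpm3-rs7 was added after values were seen. The members and lists were chosen with earlier results of these data known. Scripts were tested on simulated data. Tools were R 4.3.3, edgeR 4.0.16 (TMM only), DESeq2 1.42.0 (size factors only), SciPy 1.17.1, numpy 2.4.6, matplotlib 3.10.9, pandas 2.3.3 and Python 3.11.15. Alternatives were log2 before quantile normalization, none, a pseudocount of 0.1, FPKM of at least 1, TMM log2 CPM, DESeq2 size factors, a difference over 2, other transcript lengths, shares of counts and, chosen after seeing the data, quantile normalization over 2 libraries and the longest protein-coding transcript.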

Additional observations from a re-analysis of the deposited data

Results flagged for a closer look

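Tpm2 stood on opposite sides of MICFs in the 2 iCM libraries. The difference from MICFs was -0.79 in GMTMS-iCMs and 0.44 (0.436) in the GMTMM-labelled library. Each group held 1 library, and the difference between them was not tested. Both values share the MICF library, and neither passes 1. Between GMTMS-iCMs and the GMTMM-labelled library the difference of Tpm2 was -1.23, past the limit, with a ratio of 0.407 (0.371 to 0.445).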

How the results depend on the processing

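No paired analysis was possible because there was only 1 library of each kind, and for the same reason no library could be left out. Of the counts and medians over the members, 58 stayed near the main value and 11 moved. Of the differences of single members, 157 stayed and 50 moved. A difference stayed when it lay within the counting interval of that gene around the main value, so genes with few counts stayed over wider ranges. Tnni1 in GMTMS-iCMs against MICFs was counted as stayed although it ran from 0.28 to 1.45, past the limit of 1. This tally therefore does not measure how firm the calls are. The sign turned only for Tpm3 (-0.18 to 0.33) and Tpm4 (-0.08 to 0.60), each in the GMTMM-labelled library against MICFs. For GMTMS-iCMs against MICFs, 0 members were lower without quantile normalization, with TMM or with DESeq2 size factors. Of the genes tested, 8.60%, 20.9% and 20.0% were lower at these settings, in that order. Past a difference of 2, 0 members were lower. The median over the members was 1.08 with TMM and 1.23 with DESeq2 size factors. For GMTMS-iCMs against the GMTMM-labelled library, the median was 0.70 with a pseudocount of 0.1 (0.704926) and with TMM (0.704777). It was 0.77 with DESeq2 size factors. Past a difference of 2, 0 members were higher and 0 lower in this comparison. No share over all genes was computed past a difference of 2. The cause of these moves was not tested, apart from the stricter limit itself. Of the shares, 55 stayed within their counting interval and 59 moved. Those counted as moved include the Tnnc1 share in GMTMS-iCMs, which was 100% at each setting and so did not change. For Tnnt1 the shares were 6.18% and 3.47% of counts in GMTMS-iCMs and the GMTMM-labelled library, and for Tnnt3 0.196% and 1.27%. In the order MICFs, GMTMS-iCMs and GMTMM-labelled library, the Tnnt2 share was 10%, 93.6% and 95.3% of counts, and 9.02%, 92.8% and 94.7% with the longest protein-coding transcript. With the longest transcript of any kind it was 82.4% in GMTMS-iCMs and 86.5% in the GMTMM-labelled library. The Tnni3 share was 91.3%, 98.9% and 98.4% without Tnni2. The Tpm1 share was 27.4%, 41.7% and 37.0% of counts, 22.5%, 35.9% and 30.9% with the longest transcript and 22.1%, 35.1% and 30.5% with the longest protein-coding transcript. The Tpm4 share was 37.6%, 19.3% and 34.0% of counts, 41.8%, 22.7% and 38.6% with the longest transcript and 41.1%, 22.1% and 38.1% with the longest protein-coding transcript. These moves follow from the lengths used or, for Tnni3, from leaving out Tnni2. Over all genes, a pseudocount of 0.1 gave 1947 higher and 1677 lower in the GMTMM-labelled library against MICFs, in place of 1010 and 554. The filter on FPKM left out Tnni1. Depth limits Tnni1, Tnni2, Tnnt3 and every troponin in MICFs, at 48 counts or fewer.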

Other observations

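The primers listed for quantitative PCR of 3 members were matched to the annotated transcripts. For Tnnt2, the forward primer cagaggaggccaacgtagaag matched the sense strand of 12 of 15 transcripts and the reverse primer ctccatcggggatcttgggt the opposite strand of 12. For Tnni3, both primers matched 3 of 8 transcripts, each on its own strand. For Tpm1, the sequence aacggtgacgaacaacttgaa is printed as forward and as reverse primer, and it matched the sense strand of 10 of 21 transcripts and the opposite strand of 0. Whether another reverse primer was used is not given in the sources used here.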
